A study of Mus musculus with 8 samples.

Results

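The immediate early genes Fos, Fosb, Jun, Junb, Jund, Egr1, Egr2, Egr3, Nr4a1 and Nr4a2 were examined in endogenous CD8+ T cells that were selected for abundant IL-18Rα and in those that the selection left behind. These genes were chosen by name, and all 10 were found among the 47493 genes of the expression table. They comprise 2 FOS, 3 JUN, 3 EGR and 2 NR4A genes. Poly(A) RNA was sequenced from 4 female C57BL/6 mice, 6 to 8 weeks old at the start, and each mouse gave 1 library of either fraction, so that n = 4 per fraction.

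All mice received the whole regimen, so no untreated group entered the comparison. B16-F10 melanoma cells (200000) were inoculated on day 0 and cyclophosphamide (300 mg/kg), which depletes lymphocytes, was given on day 3. On day 5, 2000000 Thy1.1+ Pmel-1 cells, whose transgenic T-cell receptor recognizes a melanoma antigen, were transferred, and IL-2 (10000 IU) was given daily for 3 days. Anti-CD4 antibody (clone GK1.5, 200 μg) followed on days 10, 17 and 24. Inguinal lymph nodes and spleen were taken on day 25 and made into single cells, from which CD8+ cells lacking Thy1.1 were purified with beads. A PE-labelled antibody and magnetic beads held IL-18Rα-hi cells back on a column, and the flow-through of the column was the control. The fractions were enriched and not pure. Il18r1, which encodes IL-18Rα, was at 22.2 to 37.2 FPKM (fragments scaled to transcript length and library depth) in the flow-through and at 106.6 to 116 FPKM in the enriched libraries, a difference of 1.85 on the log2(FPKM + 1) scale (SE 0.15, adjusted p = 0.00029), so the labels and the selected receptor went together.

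Immediate early genes are transcribed within minutes of a stimulus, without new protein synthesis, and their RNAs are short-lived. FOS and JUN proteins pair into the AP-1 transcription factor, EGR proteins are zinc finger factors, and NR4A proteins are orphan nuclear receptors. In T cells the T-cell receptor (TCR) induces them through MAP kinases, serum response factor and calcium, and AP-1 binds together with NFAT at cytokine genes. EGR2, EGR3 and the NR4A proteins are also known for restraining activated T cells. Immediate early genes are also known to be induced when tissue is dissociated into single cells.

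Promoter sequences are shown for Egr2, Nr4a1 and Fosb, which differed between the fractions in the tests given below and whose promoters held a site that was searched for. RefSeq windows (GRCm38.p6) from 250 bases before to 50 bases after a transcription start matched 8 of the 10 genes, and Egr1 and Egr3 had none. The 250 bases before the start are printed, 5′ to 3′, with the match in capitals. Capitals mark the CArG box, which serum response factor binds, in Egr2, and the EGR site, GCGNGGGCG, in Nr4a1 and Fosb, where Nr4a1 holds it on the opposite strand.
Egr2, chr10:67537619-67537868, plus strand: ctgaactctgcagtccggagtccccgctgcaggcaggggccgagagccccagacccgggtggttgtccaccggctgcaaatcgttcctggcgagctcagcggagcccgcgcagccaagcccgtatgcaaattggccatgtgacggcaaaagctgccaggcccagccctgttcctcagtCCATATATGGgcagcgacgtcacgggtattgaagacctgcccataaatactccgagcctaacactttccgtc
Nr4a1, chr15:101266596-101266845, plus strand: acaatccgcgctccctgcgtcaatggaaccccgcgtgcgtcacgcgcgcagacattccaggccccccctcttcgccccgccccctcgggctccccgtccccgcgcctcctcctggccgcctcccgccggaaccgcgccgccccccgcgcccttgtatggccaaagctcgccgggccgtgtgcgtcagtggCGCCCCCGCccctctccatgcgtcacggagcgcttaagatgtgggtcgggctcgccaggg
Fosb, chr7:19310046-19310295, minus strand: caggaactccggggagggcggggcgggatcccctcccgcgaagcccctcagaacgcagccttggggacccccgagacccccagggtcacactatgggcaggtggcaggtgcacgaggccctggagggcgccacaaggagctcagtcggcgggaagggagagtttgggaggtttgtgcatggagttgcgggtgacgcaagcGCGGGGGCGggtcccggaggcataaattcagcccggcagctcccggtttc

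The match began 72 bases before the start in Egr2, 60 in Nr4a1 and 50 in Fosb. Egr2 had 5 windows of different transcripts, and 4 of them held a CArG box. Those that begin at 67537619, 67537620 and 67537680 overlap and hold the same box at the same position, and the window that begins at 67537316 holds another. On both strands of the full windows, the CArG box was found in Egr2 among the members and in 1.63% of all 32851 windows, and the EGR site in Fosb, Nr4a1 and Nr4a2 and in 5.55% of all windows. The letters TGACGTCA (the CRE, 1.79% of all windows), TGANTCA (the AP-1 site, 7.81%) and AAAGGTCA (the site of an NR4A monomer, 1.51%) were in none of the members' windows. The printed windows of Egr2 and Nr4a1 lie inside the annotated span of their genes, before a start downstream of the outermost, and outside annotated exons (GENCODE M21), and 6 bases of that of Fosb lie in an exon. A match describes these letters only and is not a site shown to be bound.

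The EGR genes Egr2 and Egr3 were higher in the IL-18Rα-hi-enriched fraction, by 0.63 and 0.73 on the log2(FPKM + 1) scale, and their libraries did not overlap between the fractions. Fos, Fosb, Jun, Junb, Egr1 and Nr4a2 varied mostly from mouse to mouse. When libraries of the same mouse were compared, Fosb, Jund and Nr4a1 were also higher and Jun was lower in the enriched fraction. Fos, Junb, Egr1 and Nr4a2 did not pass the test in either analysis.

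In limma on log2(FPKM + 1) with the 8 libraries as independent samples, 2 of the 10 genes were higher and 0 were lower at an adjusted p under 0.05. Of the 12166 genes tested, 14.1% were higher and 13.7% were lower in this test, so the share of members called was near that of all genes. With the mouse as a replicate block, 5 members were higher and 1 was lower, beside 22.2% and 22.7% of all genes. The libraries of the fractions did not overlap for Egr2 and Egr3, with all enriched libraries higher, which was so for 16.4% of all genes. Fos, Fosb, Jund, Egr2, Egr3 and Nr4a1 were higher in the enriched library of every mouse, as were 29.2% of all genes, and Jun was lower in every mouse, as were 30.6%. In bulk RNA, fewer cells of a type cannot be told apart from less RNA per cell.

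**Figure D1:**
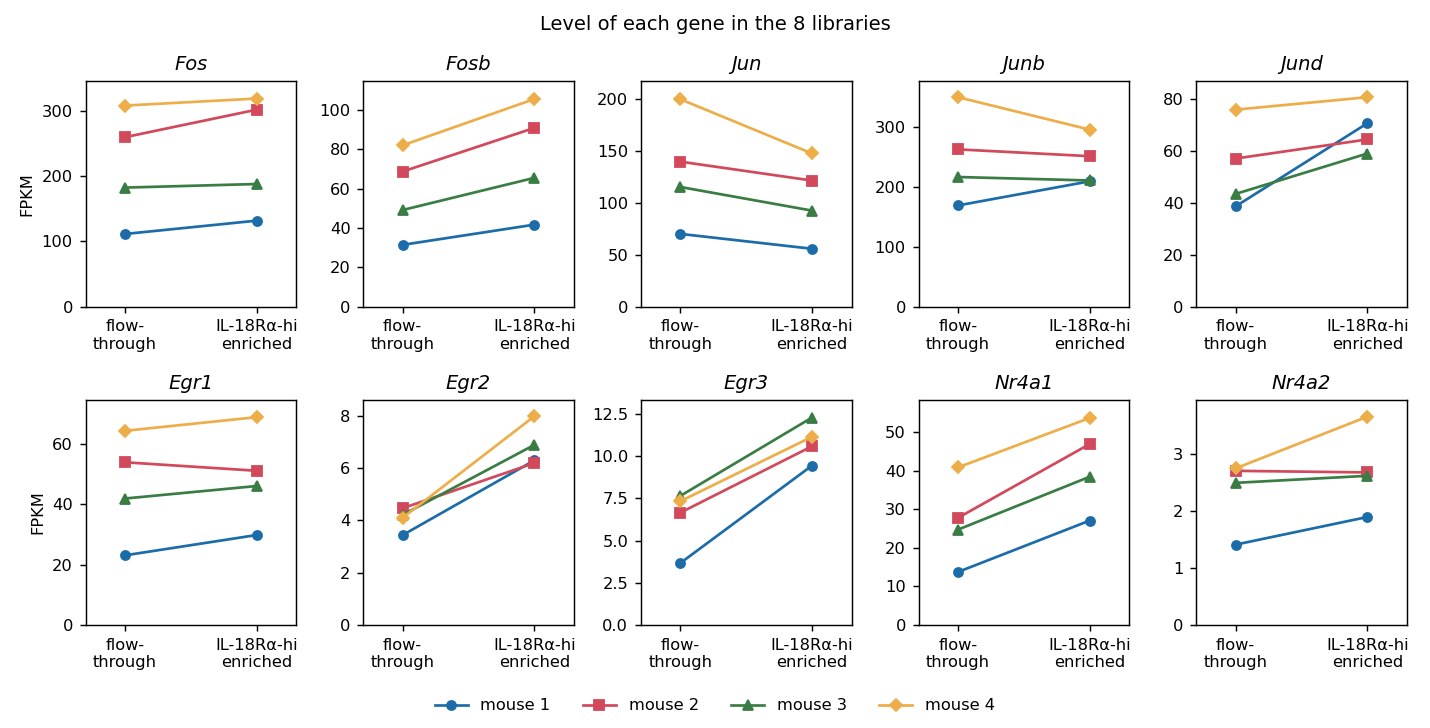
FPKM (y axis, from 0) of each gene in the flow-through and the IL-18Rα-hi-enriched library, with a line for each of 4 mice. The lines of Fos, Fosb, Jun and Egr1 are spread over the mice, whereas all enriched values of Egr2 and Egr3 lie above all flow-through values.

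The order of the mean levels was the same in both fractions, namely Junb, Fos, Jun, Fosb, Jund, Egr1, Nr4a1, Egr3, Egr2 and Nr4a2. FPKM is divided by transcript length, so levels of different genes can be set side by side. Junb was at 249.4 ± 77.1 FPKM (SD, n = 4) in the flow-through and Nr4a2 at 2.33 ± 0.63 FPKM. Neighbours in this order overlapped from Junb down to Nr4a1 in either fraction. In the enriched fraction Junb exceeded Fos in 2 of 4 libraries, and Fosb exceeded Jund in 3 of 4 libraries of either fraction. Egr3 and Egr2 overlapped in the flow-through and not in the enriched fraction. A drop without overlap lay between Nr4a1 and Egr3, and another between Egr2 and Nr4a2. From the estimated library depth, about 84 to 191 fragments were behind the values of Nr4a2, 170 to 352 behind Egr2 and 3924 to 10651 behind Fos, so counting error is relatively larger for the former.

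Fos (ENSMUSG00000021250; mm10 chromosome 12, 85473890 to 85477273, plus strand) encodes the founding FOS partner of AP-1. In mice 1 to 4 it was at 112, 260.3, 183 and 309 FPKM in the flow-through and at 132, 303, 188 and 319.7 FPKM in the enriched fraction. The fractions overlapped widely, whereas mouse 1 was lowest and mouse 4 was highest in both. The difference between fractions was 0.14 (SE 0.37, adjusted p = 0.81), and with the mouse as a block it was 0.14 (95% interval -0.02 to 0.30, adjusted p = 0.13).

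Fosb (ENSMUSG00000003545; chromosome 7, 19302696 to 19310051, minus strand) encodes another FOS protein, with the promoter printed above. It was at 31.4, 68.8, 49.2 and 82.1 FPKM in the flow-through of mice 1 to 4 and at 41.7, 91.0, 65.5 and 105.7 FPKM in the enriched fraction. The enriched library was higher in every mouse by nearly the same factor, with ratios of 1.33, 1.32, 1.33 and 1.29. The difference of 0.39 was within the spread between mice without the block (SE 0.35, adjusted p = 0.44) and passed with it (SE 0.057, adjusted p = 0.0025).

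Jun (ENSMUSG00000052684; chromosome 4, 95049034 to 95052222, minus strand) encodes c-JUN, which pairs with FOS. It was at 69.9, 139.5, 115 and 199.6 FPKM in the flow-through of mice 1 to 4 and at 55.6, 121, 92.3 and 147 FPKM in the enriched fraction. Jun was thus the only member that was lower in the enriched library of every mouse, at 0.80, 0.87, 0.80 and 0.74 times the flow-through. Its difference of -0.32 did not pass without the block (SE 0.37, adjusted p = 0.54) and passed with it (SE 0.064, adjusted p = 0.0081). Its exons share 232 bases with Junos on the opposite strand, which was listed at 2.06 to 8.71 FPKM.

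Junb (ENSMUSG00000052837; chromosome 8, 84974484 to 84978718, minus strand) encodes a JUN protein that can restrain c-JUN activity. It was at 169, 263, 216 and 349.8 FPKM in the flow-through of mice 1 to 4 and at 209, 251, 211 and 296 FPKM in the enriched fraction. The enriched library was higher in mouse 1 and lower in the other mice, and the fractions overlapped. The difference was -0.01 (SE 0.22, adjusted p = 0.98), with a 95% interval of -0.24 to 0.22 in the analysis with the block (adjusted p = 0.94).

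Jund (ENSMUSG00000071076; chromosome 8, 70698949 to 70700616, plus strand) encodes the JUN protein that is commonly present in resting cells. It was at 38.6, 57.0, 43.3 and 75.8 FPKM in the flow-through of mice 1 to 4 and at 70.5, 64.3, 58.9 and 80.6 FPKM in the enriched fraction. The enriched library was higher in every mouse, by a ratio of 1.83 in mouse 1 and between 1.06 and 1.36 in the others. The difference of 0.39 did not pass without the block (SE 0.20, adjusted p = 0.19), except when the flow-through library of mouse 4 was left out (0.57, adjusted p = 0.037). That fit kept mouse 4 in the enriched fraction only. The difference passed with the block (SE 0.13, adjusted p = 0.047), but not there without mouse 1, 2 or 3. Of the 1668 exon bases of Jund, 877 overlap Gm11175 on the opposite strand, listed at 106 to 241 FPKM. Cufflinks at its defaults does not use the strand, so the level of Jund is uncertain. The exons of Junb share 173 bases with Prdx2, which was at 117 to 472 FPKM, and no such overlap was found for the FOS, EGR and NR4A members.

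**Figure D2:**
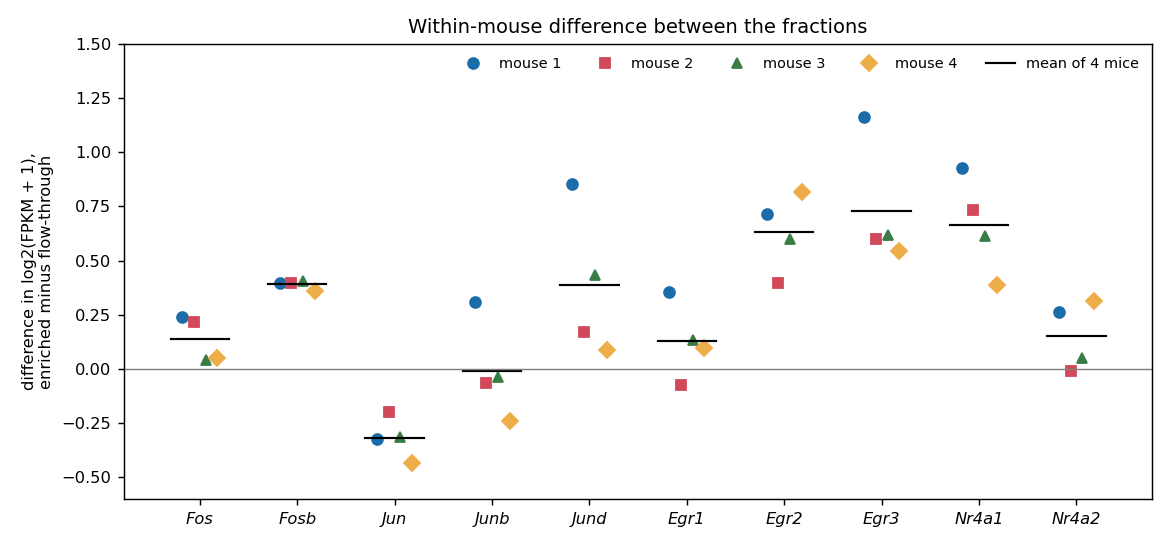
Difference in log2(FPKM + 1) between the enriched and the flow-through library of the same mouse (y axis) for each gene, with 4 mice as points and their mean as a line. The points of Fosb nearly coincide, from 0.36 to 0.41, all points of Jun lie below 0, and mouse 1 has the highest point of Fos, Junb, Jund, Egr1, Egr3 and Nr4a1.

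Egr1 (ENSMUSG00000038418; chromosome 18, 34859823 to 34864984, plus strand) encodes the EGR factor that most closely follows MAP kinase activity. It was at 23.0, 53.8, 41.8 and 64.2 FPKM in the flow-through of mice 1 to 4 and at 29.8, 51.0, 46.0 and 68.7 FPKM in the enriched fraction. The fractions overlapped, and the enriched library was higher in 3 of 4 mice. The difference was 0.13 (SE 0.34, adjusted p = 0.80), with a 95% interval of -0.07 to 0.32 in the analysis with the block (adjusted p = 0.25).

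Egr2 (ENSMUSG00000037868; chromosome 10, 67535475 to 67542188, plus strand) encodes an EGR factor that NFAT induces and that is known from T-cell tolerance. It was at 3.44, 4.47, 4.22 and 4.11 FPKM in the flow-through of mice 1 to 4 and at 6.30, 6.20, 6.89 and 7.99 FPKM in the enriched fraction. All enriched libraries were above all flow-through libraries, and mice differed little within a fraction. The difference was 0.63 (SE 0.11, adjusted p = 0.0049; with the block SE 0.099, adjusted p = 0.0032). The exact two-sided permutation test over 70 arrangements gave p = 0.029, the smallest that 4 against 4 libraries can give.

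Egr3 (ENSMUSG00000033730; chromosome 14, 70077203 to 70082614, plus strand) encodes a related factor with roles that overlap those of EGR2. It was at 3.67, 6.65, 7.64 and 7.33 FPKM in the flow-through of mice 1 to 4 and at 9.44, 10.6, 12.3 and 11.1 FPKM in the enriched fraction. The fractions did not overlap, and the ratio was 2.57 in mouse 1 and between 1.52 and 1.61 in the others. The difference was 0.73 (SE 0.19, adjusted p = 0.025; with the block SE 0.12, adjusted p = 0.0038), and the exact permutation p was again 0.029. Without the enriched library of mouse 2, 3 or 4 the adjusted p was 0.061, 0.069 or 0.065.

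Nr4a1 (ENSMUSG00000023034; chromosome 15, 101254269 to 101274795, plus strand) encodes NUR77, whose level is widely used to read out TCR signal strength. It was at 13.7, 27.8, 24.7 and 40.8 FPKM in the flow-through of mice 1 to 4 and at 27.0, 46.8, 38.4 and 53.6 FPKM in the enriched fraction. The enriched library was higher in every mouse, with ratios of 1.97, 1.69, 1.55 and 1.31, and the fractions overlapped. The difference of 0.67 did not pass without the block (SE 0.32, adjusted p = 0.15) and passed with it (SE 0.096, adjusted p = 0.0024).

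Nr4a2 (ENSMUSG00000026826; chromosome 2, 57106830 to 57124003, minus strand) encodes NURR1 and was the member at the lowest level. It was at 1.41, 2.70, 2.49 and 2.74 FPKM in the flow-through of mice 1 to 4 and at 1.89, 2.67, 2.61 and 3.65 FPKM in the enriched fraction. The fractions overlapped, and the enriched library was higher in 3 of 4 mice. The difference was 0.15 (SE 0.19, adjusted p = 0.58), with a 95% interval of -0.10 to 0.41 in the analysis with the block (adjusted p = 0.28).

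The calls depended on the reference that sets the scale. The flow-through library of mouse 1 stood apart, with a summed level of 8 CD8 T-cell genes of 1337 FPKM, while the remaining flow-through libraries reached 2144 to 2548 FPKM and the enriched ones 2542 to 2724 FPKM. Mouse 1 also had the largest within-mouse difference of Fos, Junb, Jund, Egr1, Egr3 and Nr4a1. When all libraries were scaled to these 8 genes (T-cell scaling), the median difference of all genes moved from -0.02 to -0.32, and of the members none was called. Egr2 was then at 0.35 (adjusted p = 0.18) and Egr3 at 0.44 (adjusted p = 0.095), and Fos, Egr1 and Nr4a2 changed sign, to -0.20, -0.20 and -0.074. With the block added, Jun (-0.65, adjusted p = 0.044) was the only member called. With the same scaling and without the flow-through library of mouse 1, Egr2 passed (0.46, adjusted p = 0.031). With the block, this scaling and without mouse 1, Egr2 (0.51, adjusted p = 0.011), Egr3 (0.48, adjusted p = 0.0070) and Nr4a1 (0.47, adjusted p = 0.0081) were higher and Jun (-0.43, adjusted p = 0.011) was lower, while Fosb (0.28, adjusted p = 0.072) and Jund (0.12, adjusted p = 0.42) did not pass. In the analysis with the block on the authors' scale and without mouse 1, Fosb, Egr2, Egr3 and Nr4a1 were higher and Jun was lower.

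The variation between mice was then set beside that between fractions. Of the sum of squares of log2(FPKM + 1) over the 8 libraries, 97.7% lay between mice for Fos, 95.9% for Egr1, 91.2% for Jun, 89.5% for Junb, 87.3% for Fosb and 84.7% for Nr4a2. For Egr2 87.4% and for Egr3 65.0% lay between the fractions instead. Nr4a1, with 62.5% between mice and 34.5% between fractions, and Jund, with 49.98% and 31.4%, stood in between. The median over all genes tested was 38.6% between mice and 37.3% between fractions, and a share between mice of at least 80% was found in 10.0% of all genes.

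**Figure D3:**
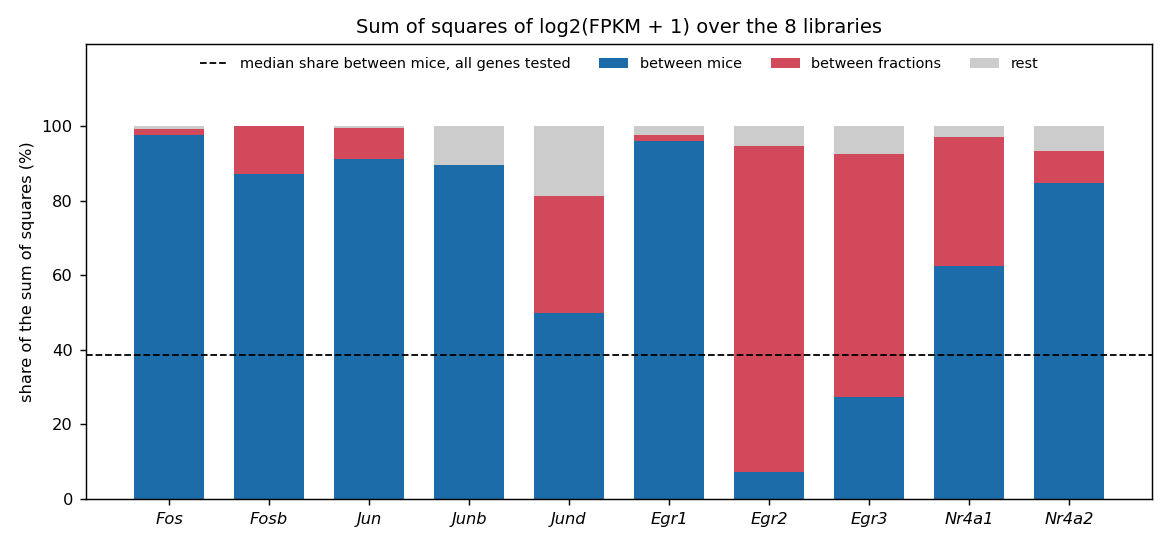
Share of the sum of squares of log2(FPKM + 1) over the 8 libraries (y axis, %) that lies between 4 mice, between the fractions and in the rest, for each gene. The dashed line is the median share between mice over 12166 genes, 38.6%, and the bars of Egr2 and Egr3 are the ones whose share between mice is below it.

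The mice stood in the same order, 1, 3, 2 and 4 from low to high, in both fractions for Fos, Fosb, Jun, Junb, Egr1, Nr4a1 and Nr4a2. This order was read off the members and is given as a description, and 3.70% of all genes had it in both fractions. Of 27 other immediate early genes tested, 13 had it, among them Dusp1, a MAP kinase phosphatase, at 62.0 and 72.0 FPKM in mouse 1 and 156 and 146 FPKM in mouse 4. It was also found in 9 of 25 genes that TCR signals induce later, among them Cd69, Il2ra and Tnfrsf4, in 2 of 26 inducers of immediate early genes and in 0 of 18 heat shock and stress genes. Egr2, Egr3 and Jund did not have it, although mouse 1 was lowest in the flow-through for each of them.

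Other features of the libraries differed between the mice too. The summed markers of NK cells, dendritic cells and CD4 T cells had the same order of mice in both fractions as Fos. Those of NK cells were at 28.7 and 132 FPKM in mouse 1 and at 62.0 and 255.5 FPKM in mouse 4. The summed level of plasma cell markers was lowest in mouse 1 in both fractions (335 and 611 FPKM) and highest in mouse 2 (1338 and 1607 FPKM), and its Pearson's r with Fos over the 8 libraries, which share animals, was 0.92. This was the highest of the marker lists, and several others were near it. The r was 0.85 for B cells, 0.80 for stem and progenitor cells, 0.78 for dendritic cells, 0.75 for myeloid cells and -0.78 for erythroid genes. For the remaining lists it was 0.47 to 0.60. Of these sums, that of plasma cells was mostly Jchain, at a mean of 723 FPKM in the flow-through and 1028 FPKM after enrichment. That of stem and progenitor cells was mostly Mpo, Prtn3 and Elane. These genes are named outside the rule for named genes. The sum of erythroid genes was highest in mouse 1 (4116 and 1995 FPKM) and 339 to 2255 FPKM in the other mice. The heat shock genes Hspa1a and Hspa1b, named after their values were seen, were highest in mouse 4, where Hspa1a was at 19.1 and 16.1 FPKM against 2.81 to 4.42 FPKM in the other mice. The part of these in the order of the mice was not tested.

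Members varied together over the libraries. After the mean of each fraction was removed, Pearson's r over the 8 libraries was 0.99 for Fos and Fosb, 0.98 for Fos and Jun, 0.98 for Egr1 and Nr4a1 and 0.96 for Fos and Egr1. It was 0.67 for Egr2 and Egr3, and between 0.47 and 0.88 for either of them with the other members. Values this high were not particular to pairs of members. With the fraction means removed, r was 0.995 for Fos and Zfp182 and 0.996 for Egr1 and Vezf1, which are not members. These values describe 4 mice with a pair of libraries each, which share the animal and the preparation.

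Ratios within a library do not depend on its depth or scale. Fosb over Fos was 0.27 ± 0.008 (SD, n = 4) in flow-through cells and 0.32 ± 0.020 after enrichment, and Jun over Fos was 0.61 ± 0.050 and 0.44 ± 0.040. Nr4a1 over Egr1 was 0.58 ± 0.050 and 0.86 ± 0.065. These ratios did not overlap between the fractions, so that relative to Fos, Fosb was higher and Jun was lower in the enriched cells, in 4 of 4 mice. Egr1 over Fos was 0.21 in both fractions, at 0.207 to 0.229 in the flow-through and 0.169 to 0.244 in the enriched fraction. Among the other ratios formed, Junb over Fos, Egr2 over Egr1, Egr3 over Egr1 and Egr3 over Egr2 also overlapped between the fractions, while Nr4a1 over Fos did not. Of the summed FPKM of the EGR members, Egr2 and Egr3 made up 19.5% ± 4.0 (flow-through) and 27.6% ± 5.6 (enriched), and the share was higher in 4 of 4 mice. Of the JUN members, Jund made up 12.5% ± 1.0 and 16.9% ± 2.9, and Junb 57.9% ± 2.1 and 58.6% ± 2.6. No test was applied to ratios and shares of the members. How often ratios of other gene pairs keep the fractions apart was not examined, so the separation is given as a description.

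**Figure D4:**
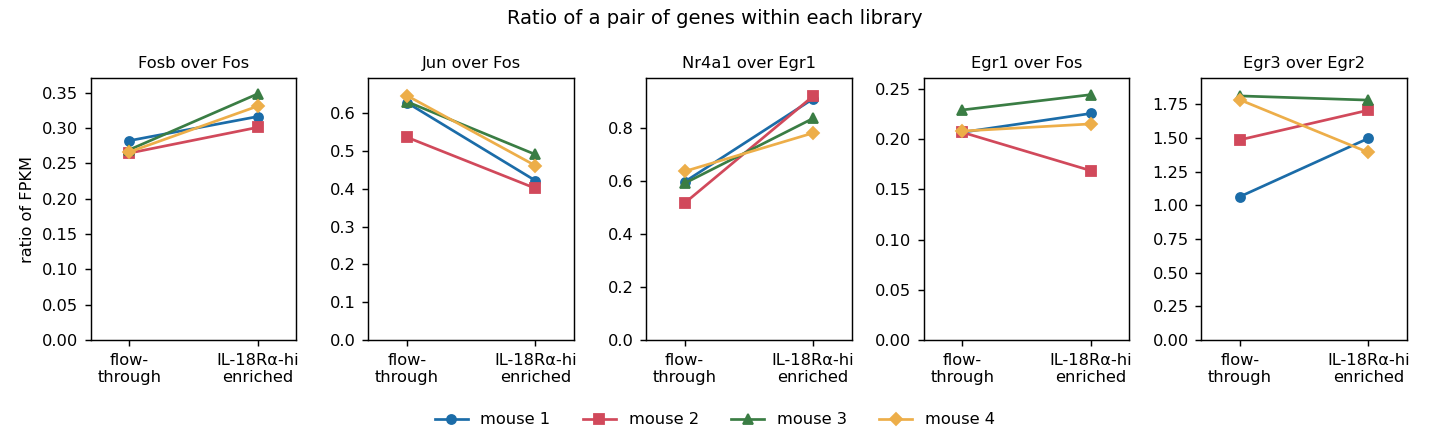
Ratio of the FPKM of a pair of genes within each library (y axis, from 0), with a line for each of 4 mice between the flow-through and the enriched fraction. Fosb over Fos and Nr4a1 over Egr1 go up and Jun over Fos goes down in every mouse, whereas Egr1 over Fos and Egr3 over Egr2 go either way.

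Relatives and partners of the members were examined next. This list of 16 genes held other bZIP proteins that pair with FOS or JUN, the remaining EGR and NR4A genes, the EGR corepressors Nab1 and Nab2 and the NR4A partners Rxra and Rxrb. Of 12 tested, 7 were higher and 2 were lower, with a median difference of 0.70, beside 1720 higher and 1664 lower of all 12166 genes with a median of -0.02. Batf3 (1.80, adjusted p = 0.0010), Maf (1.71, adjusted p = 0.00046) and Rxra (1.66, adjusted p = 0.00025) led the list. Batf, which pairs with JUN proteins and IRF4 in effector T cells, went from 34.8 ± 7.96 to 71.6 ± 1.42 FPKM (1.05, adjusted p = 0.0032). Jdp2, a repressor of AP-1, was higher by 0.98 (adjusted p = 0.011), Nab2 by 0.54 (adjusted p = 0.018) and Nab1 by 0.53 (adjusted p = 0.013). Mafk (-0.39, adjusted p = 0.013) and Rxrb (-0.43, adjusted p = 0.0036) were lower. Atf3 (0.85, adjusted p = 0.0041), Nr4a3 (0.50, adjusted p = 0.0075) and Fosl2 (0.39, adjusted p = 0.016) passed only with the block. With the T-cell scaling 5 were higher and 1 was lower, with a median of 0.45. Fosl1, Batf2, Maff and Egr4 had means under 1 FPKM and were not tested.

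**Figure D5:**
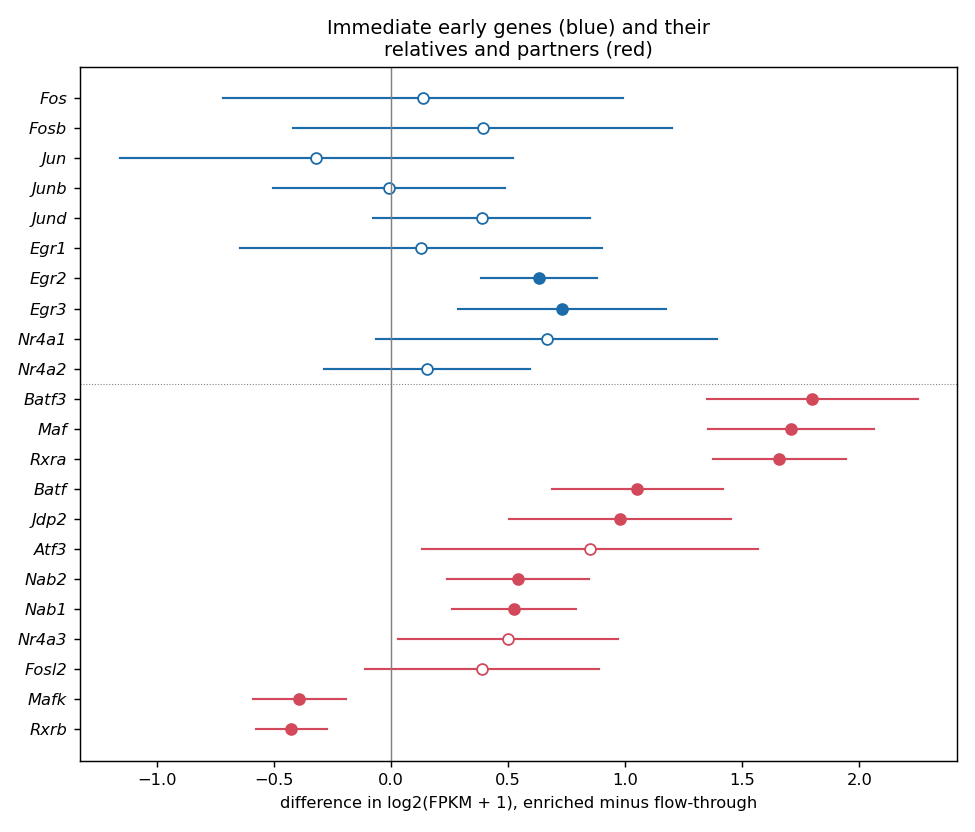
Difference in log2(FPKM + 1) between the fractions (x axis, point) with its 95% interval in the limma analysis without a block, for the 10 immediate early genes (blue) and 12 relatives and partners (red), where a filled point marks an adjusted p under 0.05. Batf3, Maf and Rxra lie at 1.66 to 1.80, above all the members, and the intervals of Fos, Fosb, Jun and Egr1 are the widest of the members together with that of Nr4a1.

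Among the genes that lead from the receptor to immediate early genes, 8 of 26 were higher and 0 were lower, with a median of 0.18. The largest differences were those of Nfatc2 (1.26, adjusted p = 0.0015), Nfatc1 (0.73, adjusted p = 0.0094), both calcium-regulated factors, and Elk3 (0.61, adjusted p = 0.038), a partner of serum response factor. With the block 12 were higher and 4 were lower, and with the T-cell scaling 1 was higher and the median was -0.15. For this list and those that follow, 14.1% of all genes were higher and 13.7% were lower. The shares were 22.2% and 22.7% with the block, and with the T-cell scaling 514 of 12224 genes were higher and 924 were lower. Srf itself was at 25.2 ± 2.14 and 29.8 ± 2.46 FPKM (0.23, adjusted p = 0.087; with the block 0.027) and is named outside the rule for named genes, after its values were seen.

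Of 27 other immediate early genes, 2 were higher, 2 were lower and the median was 0.17, and with the block 10 were higher and 5 were lower. With the T-cell scaling 0 were higher and 3 were lower, and the median was -0.14. Trib1 (0.92, adjusted p = 0.048) and Klf10 (0.65, adjusted p = 0.0019) were higher. Myc, a growth regulator, fell from 102.5 ± 4.70 to 42.2 ± 3.88 FPKM (-1.26, adjusted p = 0.00020), and Ppp1r15a, a phosphatase subunit of the stress response, was lower by -0.75 (adjusted p = 0.013). Dusp1 was at 106 ± 38.8 and 107 ± 32.1 FPKM (0.04, adjusted p = 0.93).

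Genes that TCR signals induce later were mostly higher, with 17 of 25 tested higher, 0 lower and a median of 1.10. Of all genes tested, 14.1% were higher and 13.7% were lower. The list was chosen with earlier results of these data known, so its count is given as a description. With the block 21 of the list were higher and 1 was lower. With the T-cell scaling 14 of the list were higher and 2 lower, with a median of 0.79. Il2ra, the IL-2 receptor chain, was higher by 1.90 (adjusted p = 0.0039), Icos by 1.64 (adjusted p = 0.00046) and Tnfrsf4, which encodes OX40, by 1.59 (adjusted p = 0.0016). Foxp3 (1.78, adjusted p = 0.0092) and Cd4 (1.46, adjusted p = 0.017), from the CD4 T-cell markers given below, were higher too. Which cells held the RNAs of the list was not tested. Cd69, an early activation marker, was at 58.6 ± 21.8 and 41.6 ± 9.75 FPKM (-0.43, adjusted p = 0.30), and with the block it was lower (adjusted p = 0.023). For these 25 genes a median of 73.0% of the sum of squares lay between the fractions, against 10.6% for the members and 21.7% for the 27 other immediate early genes. Of 13 genes linked to EGR2 and EGR3 in tolerant T cells, 5 were higher and 0 were lower, with a median of 0.39. With the block 8 were higher and 1 was lower, and with the T-cell scaling 2 were higher and 1 was lower. Lag3, an inhibitory receptor, was higher by 1.38 (adjusted p = 0.0019), Nrn1 by 1.19 (adjusted p = 0.018) and Tnfrsf9, which encodes 4-1BB, by 0.92 (adjusted p = 0.011). Lag3, Tnfrsf9 and Cd5, all called higher, were also in the list of genes that TCR signals induce later, and so were counted in both. Named outside the rule for named genes, Cblb (0.03, adjusted p = 0.89) and Dgka (-0.38, adjusted p = 0.21) did not pass. Rnf128 (-0.78, adjusted p = 0.12) was the gene called lower with the block (adjusted p = 0.027).

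Of 18 heat shock and stress genes, 1 was higher and 7 were lower, with a median of -0.36. With the block 2 were higher and 10 were lower, and with the T-cell scaling 1 was higher and 3 were lower. Hmox1, heme oxygenase, was higher by 1.43 (adjusted p = 0.0027). Mt2 (-2.58, adjusted p = 0.015) and Mt1 (-1.88, adjusted p = 0.010), which are metallothioneins, and Dnajb4 (-0.97, adjusted p = 0.0019), a chaperone, were lower.

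The genes whose level was most like that of a member over the 8 libraries were sought by Pearson's r among 9061 genes that averaged 5 FPKM or more, antigen receptor segments and mitochondrial genes left out. For Egr2 they were Gm43042 (0.99), Klf10 (0.99) and Chsy1 (0.99), or 0.95, 0.96 and 0.93 with the fraction means removed, of which Klf10 went from 9.62 to 11.4 FPKM in the flow-through to 16.5 to 19.6 FPKM in the enriched libraries. Nr4a1 was most like Skil (0.99), Zfp36l1 (0.98) and Tnip2 (0.98), and Fos most like Rgp1 (0.99), Zfp182 (0.99) and Fam46c (0.98). Jun was most like Atxn7 (0.98), PISD (0.98) and Zgpat (0.98), and Egr1 most like Vezf1 (1.00), Parp10 (0.99) and Fam214a (0.98). Other members that reached this level were in the search, and none was among the genes that came out most alike. The libraries share animals and preparations, and no p is given.

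The fractions also differed in genes used as markers of other cells. The part of these genes in the differences of the members was not tested. The paper lists Ncr1, Klrb1c, Klrk1 (NK-cell list here) and Blk (γδ T-cell list) as raised in its IL-18Rα-hi-enriched CD8+ T cells. It links such genes to T-cell activation. Gzma and Klrk1 had the highest enriched means of the NK-cell markers, 69.2 and 55.1 FPKM. Among myeloid markers Ly6c2 had the highest mean, 563 FPKM in flow-through cells and 736 after enrichment. Which cells held these RNAs was not tested. CD8 T-cell genes were high in all libraries, and 0 of 8 passed the test, or 1 of 8 with the block, which was higher. Summed NK-cell markers lay at 28.7 to 62.0 FPKM in the flow-through and 132 to 255.5 FPKM in the enriched libraries (6 of 7 higher), and those of CD4 T cells at 9.51 to 16.6 and 27.2 to 53.7 FPKM (3 of 3 higher). For γδ T cells, whose list includes Maf, they were at 70.9 to 99.3 and 98.7 to 206.5 FPKM (3 of 7 higher), for dendritic cells at 27.1 to 48.6 and 41.2 to 85.9 FPKM (6 of 8 higher and 1 lower) and for myeloid cells at 482 to 1324 and 1103 to 2512 FPKM (4 of 11 higher). B-cell markers were at 22.2 to 61.3 and 28.1 to 72.0 FPKM and plasma cell markers at 335 to 1338 and 611 to 1607 FPKM, with none called. Of 13 erythroid genes 4 were lower in the enriched fraction, with the sum of the whole list at 1242 to 4116 and 339 to 1995 FPKM. Of 8 stem and progenitor cell genes 4 were lower too, with the whole list at 661 to 3142 and 528 to 2937 FPKM. The latter sum came mostly from Mpo, Prtn3 and Elane, at means of 680, 399 and 340 FPKM in the flow-through, which were not called without the block. With the block, 6 of 6 plasma cell, 9 of 11 myeloid and 6 of 7 γδ T-cell markers were higher and 10 of 13 erythroid genes were lower. Of 8 stem and progenitor cell genes 1 was then higher and 6 were lower, and of 6 B-cell markers tested 1 was higher and 1 was lower. Of all genes, 22.2% were higher and 22.7% were lower with the block. None of the markers was at 0 in all libraries.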

How the data were processed

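Gene expression was measured in 8 libraries of 4 mice, and groups were taken from the labels. The deposited values are FPKM, which the authors made from stranded 150 bp paired-end reads mapped to mm10 with TopHat and quantified with Cufflinks 2.1.1 with correction for multiply mapped reads and fragment bias. The release of the annotation is not given in the sources used here. FPKM holds no exact depth. Genes with a value under 0.2 FPKM and a transcript of at least 1500 bases placed it at 14600000 to 17700000 fragments per library, and 11706 to 12288 genes reached 1 FPKM.

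Differences on the log2(FPKM + 1) scale were tested in R 4.3.3 by limma 3.58.1, letting the variance follow the mean and using no block. The 12166 genes that averaged 1 FPKM or more were tested. Fold changes on this scale understate those of low genes. P-values were two-sided, adjusted by the Benjamini-Hochberg method over all genes tested, and called under 0.05. Single members were also compared by exact permutation. The replicate number marks the animal, and deviations of same-mouse libraries from their fraction means correlated (r = 0.66, 0.59, 0.31 and 0.47 in mice 1 to 4). Pairs of libraries from different mice lay at -0.60 to 0.41, so mouse 3 was not above all of them. The fit with the mouse as a replicate block is given where it changes the call of a member or the counts of a list. The fit was tested on simulated data.

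The members and lists were chosen with earlier results of these data known. Named were all members, the relatives, from each other list up to 3 genes with the largest and 3 with the smallest difference among those past the threshold, Cd69, Dusp1 and Il18r1. Coordinates are from GENCODE M21, and 98.9% of the gene identifiers were found there. Alternatives were other pseudocounts, filters and scalings, the block, and leaving out libraries. Names absent from the table (1 listed gene) are not analysed here.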

Additional observations from a re-analysis of the deposited data

Results flagged for a closer look

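The share of Nr4a2 in the summed FPKM of Nr4a1 and Nr4a2 had a library apart from the other 3 of its fraction, both times on the low side. In the flow-through it was 6.30% in mouse 4, against 8.86% to 9.30% in the other mice. In the enriched fraction it was 5.39% in mouse 2, against 6.37% to 6.54%. Levels and shares of the members were searched in 38 groups of 4 libraries, and chance alone flags about 1 in 20 such groups.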

How the results depend on the processing

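With pseudocounts of 0.1 and 5, the median-ratio scaling and a mean of at least 5 FPKM, Egr2 and Egr3 were called and no member was lower, and Nr4a2 could not be fitted under the last. Without a filter 1 member was higher, Egr2, and Egr3 was at an adjusted p of 0.054. With the mouse as a replicate block, 2705 genes were higher and 2763 lower, with 5 members higher and 1 lower, and with the median-ratio scaling added, a choice made after the data were seen like all combined settings here, 2653 and 2805 genes and again 5 and 1 members. The T-cell scaling left 514 genes higher and 924 lower, so that 35.7% of the calls were higher, against 50.8% on the authors' scale, and 0 members higher. At an unadjusted p under 0.05 it left 883 genes higher and 3361 lower. Under it Fos (-0.20), Egr1 (-0.20) and Nr4a2 (-0.074) changed sign, which follows the shift of the median of all genes. The T-cell scaling with the replicate block gave 618 genes higher and 2252 lower, 0 members higher and 1 lower (Jun), with the same differences. With this scaling and without the flow-through library of mouse 1, 992 genes were higher and 1941 lower, 1 member was higher and 0 were lower, and Fos was at -0.27, Egr1 at -0.29 and Nr4a2 at -0.087. With the scaling, the block and without mouse 1, 1626 genes were higher and 2848 lower, 3 members were higher and 1 was lower, with Fos at -0.0076 and Egr1 at -0.057.

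When single libraries, or both libraries of a mouse with the block, were left out, 1107 to 2544 genes were higher and 939 to 2468 lower, and 1 to 5 members were higher and 0 to 1 lower. Without the enriched library of mouse 2 or 4, 1115 or 1107 genes were higher, and without these or the flow-through library of mouse 3, 958, 971 or 939 were lower. Egr3 was lost without the enriched library of mouse 2, 3 or 4, whereas Egr2 was called whichever library was left out, and Jund was gained without the flow-through library of mouse 4. The differences of Fos ranged from -0.14 to 0.39, of Egr1 from -0.16 to 0.34 and of Junb from -0.18 to 0.17, and none of the 3 was called in any of these. These extremes came from fits without the block that left out 1 library, which kept its mouse in the opposite fraction only. With both libraries of a mouse left out and the block, Fos lay at 0.10 to 0.17, Egr1 at 0.05 to 0.20 and Junb at -0.11 to 0.07. With both libraries of any mouse left out, Fosb, Egr2, Egr3 and Nr4a1 were higher and Jun was lower. The depth behind Nr4a2 and Egr2, at most 191 and 352 estimated fragments, limits their precision.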
